A study of Mus musculus with 20 samples.

Results

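The data described here are the RNA profiles of whole kidneys from mice in which a catalytically inactive telomerase reverse transcriptase had been switched on and then off again. All 7 libraries of this experiment were used, out of 20 in the whole series, and each library came from 1 mouse. The i-TERTci group (n = 3) carried the rtTA activator under a ubiquitous CAG promoter together with tetOp-TERTci, the doxycycline-dependent transgene for the inactive enzyme. The actin-rtTA+ group (n = 4) carried the activator alone. Both groups were female, 2 months old, of mixed background and heterozygous for each transgene, and both drank doxycycline at 2 mg/ml in 5% sucrose for 15 days followed by 8 days without it (time point R8). The controls therefore share the activator, the drug and its withdrawal with the i-TERTci mice. Because the transgene is driven throughout the body, and because whole kidneys were taken, a difference cannot be assigned to a cell type, and fewer cells of a type and less RNA per cell cannot be told apart.

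TERT is the catalytic subunit of telomerase, which adds telomeric repeats to chromosome ends. Mutants that cannot synthesise telomeric DNA have been used to look for roles of the protein that do not need elongation. In the kidney such work has centred on the podocyte, the glomerular cell whose foot processes and slit diaphragms hold back plasma protein. Injured tubule cells, for their part, are known to lower transport and mitochondrial genes, to switch on Lcn2, Krt20, Vcam1 and Spp1, and to re-enter the cell cycle, while fibroblasts deposit collagen and macrophages enter the tissue. Single kidneys can differ widely in how far along such a course they are, so that each of the 3 i-TERTci kidneys is shown separately below, by its replicate number.

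Libraries held 43812263 to 48399322 counts and 23230 to 25037 genes with at least 1 count, and 17745 genes passed the filter on low counts and were tested. Levels are given as CPM, the count of a gene relative to the size of its library, with library sizes scaled by TMM factors, which ran from 0.896 to 1 in the actin-rtTA+ libraries and were 1.23, 0.875 and 1.1 in i-TERTci replicates 1, 2 and 3. Differences of a single library are log2(CPM + 0.1) minus the mean of the 4 actin-rtTA+ libraries. Without the TMM factors the median of all genes would have moved by 0.39, -0.13 and 0.22 on this scale in i-TERTci replicates 1, 2 and 3, and changes are relative to the TMM scale. The first principal component held 60% of the variance and placed i-TERTci replicate 1 at 110, replicate 3 at 58.3 and replicate 2 at -17.6, with the actin-rtTA+ libraries between -43.3 and -28.8. Kidney markers were present in all 7 libraries, among them the proximal tubule receptor gene Lrp2 at 446 CPM or more, Umod of the thick ascending limb at 1943 CPM or more and the podocyte gene Nphs1 at 7.73 CPM or more.

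Tert, the gene of the induced protein, was measured first, since it bears on the labels. Its level was 3.53, 2.22, 3.04 and 3.35 CPM in actin-rtTA+ replicates 1 to 4, from 87 to 164 counts. In i-TERTci replicates 1, 2 and 3 it was 17.9, 28.1 and 4.31 CPM, from 1070, 1086 and 230 counts. All 3 i-TERTci libraries lay above all 4 controls, replicates 1 and 2 by a wide margin and replicate 3 by little. The group difference was 2.46 ± 0.52 on the log2 scale (SE), with an adjusted p of 0.0758 by edgeR's quasi-likelihood test and 7.49e-05 by DESeq2. Tert lies on chromosome 13 of mm10 from 73626911 to 73649843 on the forward strand, and a count over the whole gene does not separate transcripts of the transgene from those of the endogenous locus. Genes for the rest of the telomerase complex and for shelterin, which caps the telomere, had small differences. Of the 21 tested, Tert included, 11, 1 and 10 were above all controls in replicates 1, 2 and 3, against 36.1%, 19.8% and 30.6% of all genes. Among them Tert was the 1 gene above all controls in all 3 kidneys, and Dkc1, which encodes dyskerin, was at 14.7 to 19 CPM in the controls and at 16, 15.9 and 18 CPM in i-TERTci replicates 1, 2 and 3. The median difference of this list was 0.21, -0.02 and 0.19 in the 3 kidneys, and 0.57, -0.15 and 0.39 without TMM factors.

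Across all genes, the number called depended on the test and on 1 kidney. By edgeR's quasi-likelihood test with Benjamini-Hochberg adjustment, 1 of 17745 genes (0.00564%) was called, Hmox1, and it was higher. No gene was called lower, although 1341 genes were lower and 2631 higher at an unadjusted p under 0.05 (7.56% and 14.8%). DESeq2 called 1602 genes higher and 393 lower (8.18% and 2.01% of the genes it gave an adjusted p). Without i-TERTci replicate 2, edgeR called 2777 genes higher and 1548 lower (15.1% and 8.43%), whereas without replicate 1 it called 1 gene (0.00555%), Tent5a, and without replicate 3 it called 3 (0.0166%), Tert, Cyp2d9 and Gm5514, all 4 higher. Of the 1995 genes called by DESeq2 with all 7 libraries, 1881 (94.3%) were also called by edgeR without replicate 2, where they made up 43.5% of the 4325 calls. The libraries of both fits are largely the same. Below, "called" names the test each time, and the words higher and lower describe levels.

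**Figure D1:**
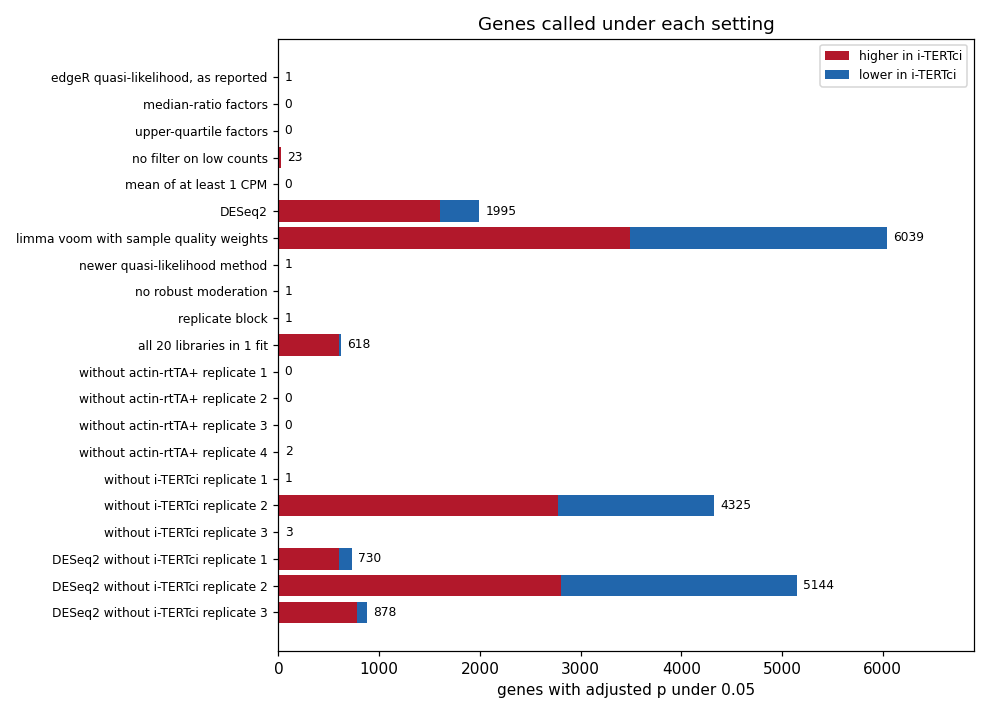
Number of genes with an adjusted p under 0.05 (horizontal axis) under each test or set of libraries (vertical axis), with genes higher in i-TERTci in red and lower in blue. The count is 1 for the edgeR test on all 7 libraries, 1995 for DESeq2 and 4325 for edgeR without i-TERTci replicate 2.

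A few genes were shifted to a similar extent in all 3 i-TERTci kidneys. They were taken from the genes of smallest p, a choice that favours genes with little spread between kidneys. Hmox1 encodes heme oxygenase, which breaks down heme and is induced by oxidative and heme stress. It was at 20.7, 17, 20.2 and 25.2 CPM in the actin-rtTA+ libraries (20.8 ± 3.36, SD, n = 4) and at 66.1, 71.2 and 58.3 CPM in i-TERTci replicates 1, 2 and 3 (65.2 ± 6.46, SD, n = 3). Every i-TERTci kidney was thus well above every control, including replicate 2. The difference was 1.65 ± 0.15 on the log2 scale (SE), and Hmox1 rose with an adjusted p of 0.0468 by edgeR and 1.15e-14 by DESeq2. Its adjusted p ran from 1.15e-14 to 0.229 over 21 fits and was under the threshold in 11 of them. Without actin-rtTA+ replicates 1, 2 or 3 it was 0.201, 0.162 and 0.217, without i-TERTci replicate 1 it was 0.0642 and without i-TERTci replicate 3 it was 0.0566. The gene lies on chromosome 8 of mm10 from 75093621 to 75100589 on the forward strand.

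The 9 genes next in order of p all had an adjusted p of 0.0758 by edgeR, were called by DESeq2 and had no overlap between the groups. Choosing genes by smallest p in these same libraries favours both traits, which are therefore no separate evidence. Over all genes 9.01% were above all controls in all 3 i-TERTci kidneys and 8.17% below. DESeq2 called 10.2% of the genes it gave an adjusted p. Gli2, a transcription factor of the Hedgehog pathway on chromosome 1 from 118834132 to 119053619, was at 0.366, 0.663, 0.944 and 0.479 CPM in the controls and at 6.62, 5.28 and 4.67 CPM in i-TERTci replicates 1, 2 and 3, a log2 difference of 3.17 ± 0.34 (SE). Tgfb2, which encodes a TGF-beta ligand, was at 4.51 to 6.48 CPM in the controls and at 13.5, 12 and 13.4 CPM in the i-TERTci kidneys, with a log2 difference of 1.3 ± 0.16. Tfrc, the transferrin receptor that brings iron into cells, was the single gene of the 10 that was lower, at 35.2, 30.2, 27.3 and 31.2 CPM in the controls and at 16, 14.2 and 16.8 CPM in the i-TERTci kidneys, with a log2 difference of -0.98 ± 0.13. In these 3 genes, as in Hmox1, replicate 2 was at a level close to that of the other i-TERTci kidneys, which the choice by p favours.

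Others among the 10 were unequal between kidneys. Tent5a, which encodes a poly(A) polymerase that stabilises transcripts of secreted proteins, was at 8.47 to 10.8 CPM in the controls and at 31.1, 137 and 66 CPM in i-TERTci replicates 1, 2 and 3, so that replicate 2 was the highest. F2r, the thrombin receptor PAR1, was at 32.1 to 36.9 CPM in the controls and at 116, 68.2 and 116 CPM. Mfap4, an elastic fibre protein, was at 2.91 to 6.26 CPM and at 25.3, 13.5 and 25.7 CPM. In both of these replicate 2 was the lowest of the 3 and still above every control. Apobec3, an antiviral cytidine deaminase, was at 4.53 to 6.04 CPM in the controls and at 17.8, 12.4 and 11.4 CPM in the i-TERTci kidneys. Nr4a3, an inducible nuclear receptor, was at 0.172 to 0.368 CPM and at 2.98, 1.58 and 1.33 CPM.

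Mmp7, the gene for matrilysin, had no count in any of the 4 controls and 30, 18 and 33 counts in i-TERTci replicates 1, 2 and 3 (0.503, 0.466 and 0.619 CPM). Set against a floor of 3 counts per library, its mean was at least 6.92-fold higher in the i-TERTci kidneys. It passed the filter on low counts through the i-TERTci group. The levels are low but similar in the 3 kidneys. The 250 bases upstream of its start are shown because they hold a match to the AP-1 motif TGANTCA (capitals, either strand), the site of the FOS and JUN proteins. Of the genes for these proteins, Fos is described further on. The sequence is from RefSeq, chr9:7691840-7692089 of GRCm38.p6, forward strand, written 5′ to 3′.

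Mmp7: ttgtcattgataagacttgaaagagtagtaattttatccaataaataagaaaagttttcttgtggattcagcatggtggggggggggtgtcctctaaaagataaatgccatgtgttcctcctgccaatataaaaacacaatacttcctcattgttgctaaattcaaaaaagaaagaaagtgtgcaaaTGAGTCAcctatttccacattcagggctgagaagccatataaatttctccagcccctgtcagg

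The match begins 63 bases before the start. It occurs in 1856 of 27025 promoter windows of this length (6.87%), and in 4 of the 24 windows found for the metalloproteinase list (16.7%). A match of letters describes the window only.

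**Figure D2:**
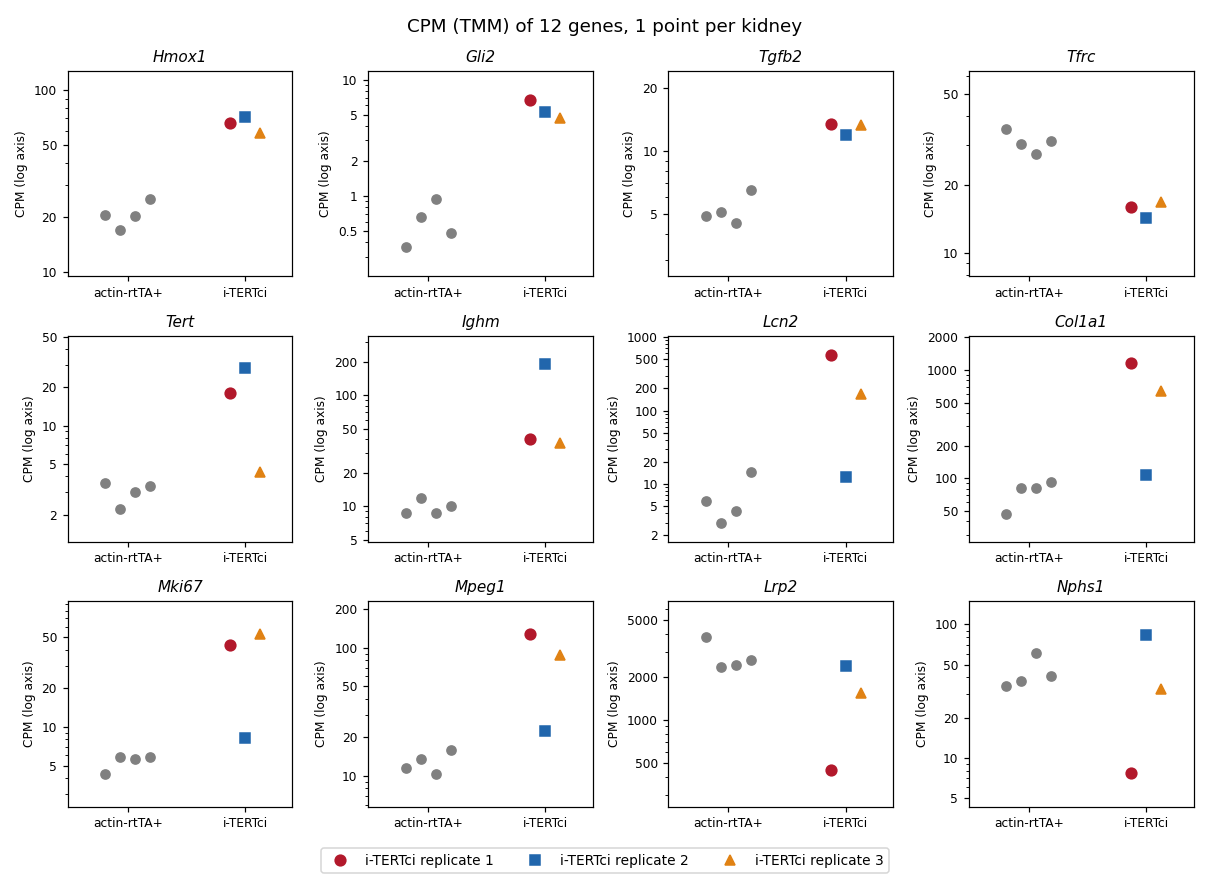
CPM (log axes, each panel with its own range) of 12 genes in the 4 actin-rtTA+ kidneys (grey) and in i-TERTci replicates 1 (red circle), 2 (blue square) and 3 (orange triangle). Hmox1, Gli2, Tgfb2 and Tfrc are at a similar level in all 3 i-TERTci kidneys, while Lcn2, Col1a1, Mki67, Mpeg1 and Lrp2 have replicate 2 at or near the control level, and Tert and Ighm are highest in replicate 2.

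For most genes that separated the groups, the 3 i-TERTci kidneys stood in the same order. In 1599 genes (9.01% of those tested) all 3 were above all 4 controls, and in 1450 (8.17%) all 3 were below. Among the 1599, replicate 1 was the farthest from the controls in 1213 (75.9%) and replicate 2 the nearest in 1242 (77.7%). Among the 1450 lower genes, replicate 1 was the farthest in 1166 (80.4%) and replicate 2 the nearest in 1028 (70.9%). Replicate 2 was itself the farthest in 112 higher and 108 lower genes. The 2777 genes called higher by edgeR without replicate 2 had a median difference of 1.54 in replicate 1 and 1.14 in replicate 3, which chose them, and of 0.19 in replicate 2, with its quartiles at -0.02 and 0.48. For the 1548 lower genes the medians were -1.21, -0.68 and -0.15. All these differences are from the same 4 control libraries. The number of genes above all controls was 6408 in replicate 1 (36.1%), 5423 in replicate 3 (30.6%) and 3514 in replicate 2 (19.8%), and the number below was 5896, 4631 and 3500 (33.2%, 26.1% and 19.7%).

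**Figure D3:**
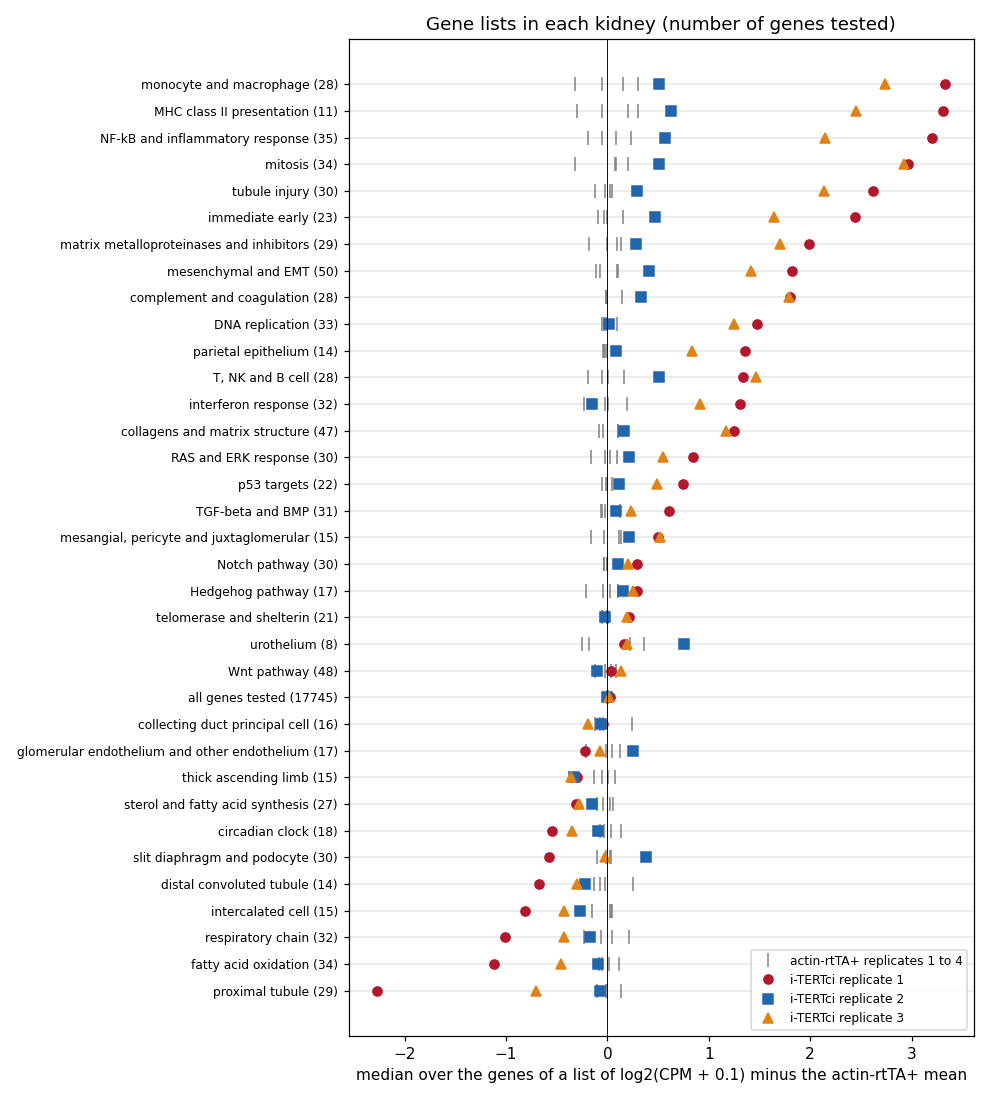
Median over the genes of each list of log2(CPM + 0.1) minus the actin-rtTA+ mean (horizontal axis), for each kidney, with grey ticks for the 4 actin-rtTA+ kidneys and the number of genes tested in brackets. Macrophage, MHC class II, NF-kB and mitosis genes are highest in replicates 1 and 3, proximal tubule genes are lowest in replicate 1 at -2.27, and replicate 2 lies close to the controls in most lists.

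Genes of injured tubule cells were much higher in replicates 1 and 3. Of 30 tested, edgeR called 0 and DESeq2 called 24 higher, against 8.18% of the genes DESeq2 gave an adjusted p. In all 3 kidneys 14 were above all controls, against 9.01% of all genes. The median difference was 2.62, 0.29 and 2.14 in i-TERTci replicates 1, 2 and 3. Lcn2, which encodes the iron-carrier protein NGAL, was at 5.97, 2.98, 4.33 and 14.6 CPM in the controls and at 577, 12.3 and 170.1 CPM in the i-TERTci kidneys, so that replicate 2 was within the range of the controls. The same held for Spp1, osteopontin, at 1092 to 1395 CPM in the controls and 13606, 1176 and 10091 CPM. Cd44, a hyaluronan receptor of activated parietal and tubule cells, was at 1.61 to 5.08 CPM in the controls and at 116, 7.27 and 59.8 CPM, with replicate 2 just outside. Havcr1, the gene of the injury marker KIM-1, did not follow this order, with 99.1 to 188 CPM in the controls and 159.9, 210 and 238 CPM in the i-TERTci kidneys (adjusted p 0.193 by edgeR and 0.152 by DESeq2). The 14 genes of the parietal epithelium, which lines the glomerular capsule, had medians of 1.36, 0.08 and 0.83. DESeq2 called 9 of them higher, against the same 8.18%. Lcn2, Spp1 and Havcr1 are named for their place in the list, after their values were seen, and the same holds for Dkc1, Col1a1, Dcn, Ccn2, Timp1, Timp3, Cxcl1, Lyz2, Cd74, C3, Ighm, Igkc, Igha, Jchain, Mzb1, Cdc20, Fos, Kap, Slc6a19, Tfam, Acadm, Sdhd, Echs1, Alb, Cyp2d9, Gm5514 and each gene of the Hedgehog pathway other than Gli2.

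Many genes of the list for mesenchymal cells and epithelial to mesenchymal transition were higher in all 3 kidneys. Of 50 tested, 29 were above all controls in all 3 kidneys and 0 below, against 9.01% and 8.17% of all genes. DESeq2 called 39 higher and 0 lower, against 8.18% and 2.01% of the genes it gave an adjusted p. Their median difference was 1.82, 0.41 and 1.42 in i-TERTci replicates 1, 2 and 3. Col1a1, a chain of fibrillar collagen, was at 46.6, 81.6, 80.8 and 92 CPM in the controls and at 1149, 106 and 636 CPM. Tagln, a smooth muscle protein also made by myofibroblasts, was at 29.1 to 54.2 CPM and at 192, 84.9 and 104 CPM. A subset was as high in replicate 2 as in the others. Lum, the keratan sulphate proteoglycan lumican, was at 2.68 to 3.92 CPM in the controls and at 7.09, 10 and 13.3 CPM (log2 difference 1.53 ± 0.24, SE). Dcn, decorin, was at 50.9 to 70.3 CPM and at 101, 97.7 and 117 CPM, and Ccn2, a matricellular protein induced by TGF-beta, at 86.6 to 129 CPM and at 197, 189.7 and 179.8 CPM. Of the transcription factors of the transition, Snai1, Twist2 and Zeb2 were called higher by DESeq2, with adjusted p of 0.0482, 0.00637 and 0.0163, and Snai2, Twist1 and Zeb1 were not called, with 0.552, 0.662 and 0.755 (these 6 were chosen after their values were seen).

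Genes of matrix structure and turnover were also higher in replicates 1 and 3 than in replicate 2. The 47 genes of collagens and other structural matrix had medians of 1.25, 0.16 and 1.17, with 21 above all controls in all 3 kidneys and 28 called higher by DESeq2. Among 29 matrix metalloproteinases and their inhibitors the medians were 1.99, 0.28 and 1.7, and DESeq2 called 19 of all 33 members higher. Over all genes 9.01% were above all controls in all 3 kidneys, and DESeq2 called 8.18% of those it gave an adjusted p higher. Mmp2, a gelatinase of fibroblasts, was at 7.52, 13.4, 10.7 and 13.2 CPM in the controls and at 55.6, 18.5 and 56.2 CPM in the i-TERTci kidneys (log2 difference 1.95 ± 0.37, SE). Mmp9, the gelatinase of leukocytes and tubule cells, was at 0.388 to 1.22 CPM and at 3.24, 0.595 and 4.24 CPM, so replicate 2 was among the controls. Mmp23, a membrane-anchored member, was at 5.52 to 7.97 CPM and at 15.7, 9.16 and 11.1 CPM. By edgeR their adjusted p was 0.0758, 0.132 and 0.0896, and by DESeq2 4.54e-05, 0.027 and 0.0153. The inhibitors went different ways, with Timp1 at 0.108 to 1.4 CPM in the controls and 60.8, 1.01 and 19.5 CPM in the i-TERTci kidneys, and Timp3 at 1675 to 2395 CPM in the controls and 641, 1959 and 1267 CPM.

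By list median, inflammatory and leukocyte genes were far above the controls in replicates 1 and 3. Apart from the interferon response, they were slightly above them in replicate 2. The 35 tested genes of NF-kB and the inflammatory response had medians of 3.2, 0.57 and 2.15 in i-TERTci replicates 1, 2 and 3. DESeq2, which tests more genes of low count, called 34 of the 43 members higher, and 22 were above all controls in all 3 kidneys. Over all genes these shares were 8.18% (of those DESeq2 gave an adjusted p) and 9.01%. Osmr, the oncostatin M receptor, was at 11.3, 13.3, 11.2 and 11.5 CPM in the controls and at 48, 19.2 and 49.3 CPM. Cxcl1, a neutrophil chemokine, was at 0.331 to 1.04 CPM and at 41.9, 1.24 and 11.4 CPM. Its upstream 250 bases are shown for their match to the NF-kB motif searched as GGGA and TTCC with any 2 bases between them, on both strands (capitals, with matches on both strands that overlap), from RefSeq, chr5:90890995-90891244 of GRCm38.p6, forward strand, 5′ to 3′.

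Cxcl1: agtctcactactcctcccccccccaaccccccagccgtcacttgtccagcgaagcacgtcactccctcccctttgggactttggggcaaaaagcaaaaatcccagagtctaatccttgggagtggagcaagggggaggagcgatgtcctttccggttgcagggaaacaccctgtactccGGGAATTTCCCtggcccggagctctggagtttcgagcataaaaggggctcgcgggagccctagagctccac

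The first match begins 71 bases before the start. The motif was present in 6 of 34 windows found for this list (17.6%) and in 316 of 27025 windows of all genes (1.17%). The list had been chosen with results of these data known.

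All 28 monocyte and macrophage markers were above all controls in replicates 1 and 3, and 16 were in replicate 2, with medians of 3.33, 0.51 and 2.74. Over all genes 36.1%, 19.8% and 30.6% were above in replicates 1, 2 and 3. DESeq2 called 27 of the 28 higher, against 8.18% of the genes it gave an adjusted p. Mpeg1, the pore-forming perforin-2 of macrophages, was at 11.6, 13.5, 10.4 and 15.9 CPM in the controls and at 129, 22.4 and 87.7 CPM in the i-TERTci kidneys (log2 difference 2.64 ± 0.48, SE). Lyz2, lysozyme, was at 11.5 to 32 CPM and at 678, 38.4 and 251 CPM. Antigen presentation through MHC class II had the same order in all 11 genes, with medians of 3.31, 0.63 and 2.45. Its regulator Ciita was at 3 to 3.9 CPM in the controls and at 34.4, 5.25 and 26.3 CPM, and the invariant chain gene Cd74 at 155 to 276 CPM and at 2482, 310 and 1379.8 CPM. Complement and coagulation genes (28 tested) had medians of 1.8, 0.33 and 1.79, led by C3 at 20.1 to 53.7 CPM in the controls and 1763, 90.6 and 1049.8 CPM. In the 32 interferon response genes the median was 1.31 and 0.91 in replicates 1 and 3 and -0.15 in replicate 2. In replicate 2, 2 of them were above all controls and 9 below, against 19.8% and 19.7% of all genes. Cxcl10, an interferon-induced chemokine, was at 2.41 to 5.23 CPM in the controls and at 54, 5.15 and 34.2 CPM. Neutrophil markers were scarce, with 5 of 13 tested, and Csf3r was at 1.38 to 3.21 CPM in the controls and 12.2, 3.36 and 8.42 CPM. Whether the number of leukocytes or their RNA content differed was not tested.

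Among lymphocyte genes, those for immunoglobulins had another order. The list of T, NK and B cell genes holds Ighm, Igkc and Jchain as well. Its 28 tested genes had medians of 1.34, 0.51 and 1.47, and Cd28, a costimulatory receptor of T cells, was at 0.151 to 0.25 CPM in the controls and at 0.973, 0.673 and 1.05 CPM. In both, replicate 2 was the nearest to the controls. The immunoglobulin genes Igkc and Igha were higher in replicates 2 and 3 than in replicate 1, and Ighm was highest in replicate 2. Ighm, the heavy chain of IgM, was at 8.64, 11.8, 8.68 and 10.1 CPM in the controls and at 40.4, 189.8 and 37 CPM in i-TERTci replicates 1, 2 and 3. Igkc, the kappa light chain, was at 40.9 to 115 CPM and at 155, 468 and 480.3 CPM, and Igha, the heavy chain of IgA, at 57.6 to 117 CPM and at 147, 217 and 719 CPM. Jchain, which joins polymeric antibodies, was at 7.67 to 16.6 CPM and at 20.2, 56.5 and 97.5 CPM. By edgeR these 4 genes had adjusted p from 0.0758 to 0.0887 and by DESeq2 from 5.01e-07 to 0.00131. Over the 59 tested immunoglobulin gene segments, grouped after their values were seen, 41 were above all controls in replicate 2, 33 in replicate 3 and 17 in replicate 1, against 19.8%, 30.6% and 36.1% of all genes. Reads of similar segments can be shared between them in counting. The plasma cell gene Mzb1 was at 0.388 to 1.08 CPM in the controls and at 0.52, 0.518 and 0.45 CPM, so that it did not separate the groups.

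Genes of the cell cycle were mostly above the controls in replicates 1 and 3, and most mitosis genes were above them, by less, in replicate 2. The 34 mitosis genes had medians of 2.96, 0.51 and 2.92, with 33 above all controls in each of replicates 1 and 3 and 21 in replicate 2. Over all genes 36.1%, 19.8% and 30.6% were above in replicates 1, 2 and 3. DESeq2 called 33 higher, against 8.18% of the genes it gave an adjusted p. Mki67, the proliferation antigen, was at 4.31, 5.86, 5.64 and 5.85 CPM in the controls and at 43.5, 8.26 and 53.2 CPM in i-TERTci replicates 1, 2 and 3 (log2 difference 2.69 ± 0.52, SE, adjusted p 0.0758 by edgeR and 9.33e-06 by DESeq2). Foxm1, a transcription factor of late cell cycle genes, was at 2 to 3.19 CPM and at 20.1, 5.23 and 16.3 CPM. Cdc20, an activator of the anaphase-promoting complex, was at 1.49, 2.24, 1.5 and 1.83 CPM in the controls and at 12.4, 1.71 and 12.7 CPM. Its replicate 2 level was inside the control range, unlike that of Mki67 and Foxm1. The 250 bases before its start are shown because they hold 2 elements typical of this class of genes, CCAAT and the CHR element TTTGAA (capitals), from RefSeq, chr4:118437344-118437593 of GRCm38.p6, reverse strand, 5′ to 3′.

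Cdc20: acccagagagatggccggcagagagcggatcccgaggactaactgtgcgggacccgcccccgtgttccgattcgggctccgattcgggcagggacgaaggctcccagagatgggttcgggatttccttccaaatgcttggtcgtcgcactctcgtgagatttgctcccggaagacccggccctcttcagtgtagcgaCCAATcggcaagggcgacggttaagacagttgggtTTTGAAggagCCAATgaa

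The elements begin 53, 18 and 8 bases before the start, all in the direction of the gene. On either strand CCAAT was in 23 of the 29 windows found for the mitosis list (79.3%) and in 34.5% of all 27025 windows, and TTTGAA was in 10 of 29 (34.5%) and in 16.3%. DNA replication genes, 33 in all, had medians of 1.48, 0.02 and 1.25, so that replicate 2 could not be told from the controls there, and Uhrf1, which maintains DNA methylation, was at 2.05 to 3.03 CPM in the controls and at 23.4, 3.52 and 16.3 CPM. Among 22 targets of p53 the medians were 0.75, 0.11 and 0.49, and Gtse1, also a mitotic gene, was at 0.56 to 0.792 CPM in the controls and at 7.4, 1.66 and 5.72 CPM. Immediate early genes, which include Fos and Egr1, had medians of 2.44, 0.47 and 1.64 over 23 genes. DESeq2 called 16 of them higher, against 8.18% of the genes it gave an adjusted p. Fos was at 0.345 to 0.833 CPM in the controls and at 6.86, 1.53 and 5.85 CPM, and Egr1 at 3.66 to 10.4 CPM and at 75.9, 17.3 and 56 CPM.

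Genes of tubule transport and energy metabolism were lower, most of all in replicate 1. The 29 proximal tubule genes had medians of -2.27, -0.07 and -0.7 in i-TERTci replicates 1, 2 and 3. In replicate 1, 27 of the 29 were below all controls, in replicate 3 22 were, and in replicate 2 7 were below and 8 above. Over all genes 33.2% and 26.1% were below in replicates 1 and 3, and 19.7% below and 19.8% above in replicate 2, to which its counts are close. By DESeq2 3 were called lower, against 2.01% of the genes it gave an adjusted p, and by edgeR 0. The 3 were Agmat, Aqp1 and Slc6a19, the neutral amino acid transporter. Lrp2, which encodes the endocytic receptor megalin, was at 3768, 2353, 2406 and 2611 CPM in the controls and at 446, 2373 and 1545 CPM in the i-TERTci kidneys. Kap, a kidney protein controlled by androgen, was at 14324 to 17737 CPM in the controls and at 347, 20046 and 8858 CPM. Aqp1, a water channel, was at 957 to 1093 CPM and at 305, 826 and 511 CPM, and Agmat, agmatinase, at 11 to 14.9 CPM and at 2.95, 7.27 and 7.48 CPM. The levels of this segment summed over its list were 45973 to 49617 CPM in the controls and 7247, 52211 and 28194 CPM in the 3 kidneys.

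Mitochondrial genes were lower in all 3 kidneys more often than genes at large. Of 32 respiratory chain genes, 32, 15 and 28 were below all controls in replicates 1, 2 and 3 and 15 were below in all 3, against 33.2%, 19.7%, 26.1% and 8.17% of all genes. The medians were -1.01, -0.17 and -0.43, and control medians ran from -0.23 to 0.21, so that the replicate 2 median was within their range. Ndufs3, a subunit of complex I, was at 132, 164, 149 and 143 CPM in the controls and at 77.4, 117 and 99.2 CPM (log2 difference -0.59 ± 0.17, SE, adjusted p 0.0998 by edgeR and 0.0233 by DESeq2). Tfam, which maintains mitochondrial DNA, was at 27 to 28.8 CPM in the controls and at 18.6, 22.6 and 24.1 CPM. In the 34 genes of fatty acid oxidation the medians were -1.12, -0.09 and -0.46 and 9 were below all controls in all 3 kidneys. Fabp3, a fatty acid carrier, was at 77.6 to 94.7 CPM in the controls and at 35.6, 60.5 and 49.4 CPM. Acadm, the medium-chain acyl-CoA dehydrogenase, was at 987 to 1345 CPM and at 165, 1096 and 558 CPM. DESeq2 called Ndufs3 and Sdhd, a subunit of complex II, lower in the first list and Fabp3 and Echs1, enoyl-CoA hydratase, in the second, and edgeR called 0 in either. Over all genes DESeq2 called lower 2.01% of those it gave an adjusted p. Proximal tubule genes were lower in the same kidneys, and the part of cell composition in the mitochondrial lists was not tested.

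Sterol and fatty acid synthesis and the circadian clock differed less. Insig1, which holds back sterol synthesis, was at 25.1 to 28.9 CPM in the controls and at 10.3, 17.2 and 16.2 CPM in the i-TERTci kidneys, and the 27 genes of its list had medians of -0.31, -0.15 and -0.28. Nr1d1, a repressor of the clock, was at 165 to 173 CPM and at 98, 134 and 116 CPM, and the medians over 18 clock genes were -0.55, -0.09 and -0.35. Without TMM factors the median of the sterol list in replicate 1 was 0.06, so its direction there depended on the scaling.

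Segments after the proximal tubule had smaller median differences than the proximal tubule in replicates 1 and 3 and, apart from the principal cell, larger ones in replicate 2. The 15 genes of the thick ascending limb had medians of -0.3, -0.33 and -0.36, the 14 of the distal convoluted tubule -0.67, -0.22 and -0.3, the 16 of the principal cell -0.04, -0.06 and -0.19, and the 15 of the intercalated cell -0.81, -0.27 and -0.43. In the same order, control medians ran from -0.13 to 0.07, -0.13 to 0.25, -0.12 to 0.24 and -0.15 to 0.05. In the distal convoluted tubule the shift of actin-rtTA+ replicate 1, at 0.25, was at least as large as that of i-TERTci replicate 2. Below all controls in all 3 kidneys were 4, 4, 4 and 7 genes of these lists, against 6 of the 29 proximal tubule genes and 8.17% of all genes. Without TMM factors the thick ascending limb was at 0.06 and the principal cell at 0.32 in replicate 1, so their direction is not fixed. Umod, uromodulin, was at 1943 to 3852 CPM in the controls and at 4409, 2094 and 3624 CPM, and Bsnd, the barttin subunit of chloride channels, at 67.5 to 73.6 CPM and at 50.5, 58.4 and 56.3 CPM. Slc12a3, the thiazide-sensitive cotransporter, was at 585 to 807 CPM and at 278, 562 and 431 CPM, and Klhl3, which degrades its activating kinases, at 37.3 to 51 CPM and at 16.8, 33.3 and 27.6 CPM. Of the water channels of the principal cell, Aqp2 was at 329.6 to 486 CPM in the controls and at 719.8, 420.1 and 374 CPM, with overlap, and Aqp4 at 93.9 to 165 CPM and at 27.3, 84.6 and 45.3 CPM, without it. Slc4a1, the anion exchanger of intercalated cells and red cells, was at 50.2 to 69.7 CPM and at 24.5, 44.9 and 36.4 CPM. By edgeR 0 of these genes were called, and by DESeq2 Bsnd, Aqp4 and Slc4a1 were called lower.

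Podocyte genes lay on opposite sides of the controls in i-TERTci replicates 1 and 2. Over 30 slit diaphragm and podocyte genes the median difference was -0.58, 0.38 and -0.02 in replicates 1, 2 and 3. In replicate 1, 18 were below all controls and 6 above, against 33.2% of all genes below and 36.1% above. In replicate 2, 19 were above and 0 below, against 19.8% of all genes above and 19.7% below in that kidney. In replicate 3, 9 were above and 9 below, near the shares of 30.6% and 26.1% of all genes. Nphs1, nephrin of the slit diaphragm, was at 34.4, 37.5, 60.5 and 41.1 CPM in the controls and at 7.73, 83.3 and 32.6 CPM in i-TERTci replicates 1, 2 and 3. Synpo, the actin-bundling synaptopodin, was at 91.4 to 139 CPM and at 62.3, 224 and 90.9 CPM, and Wt1, the transcription factor of mature podocytes, at 12.9 to 15.5 CPM and at 5.15, 21.7 and 10.2 CPM. Each of these 3 was lowest in replicate 1, highest in replicate 2 and near or just below the controls in replicate 3. The group differences were small, with log2 values of -0.08 ± 0.62 for Nphs1, 0.18 ± 0.4 for Synpo and -0.21 ± 0.4 for Wt1 (SE) and adjusted p of 0.798 to 0.957 by edgeR.

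Without i-TERTci replicate 2 the Wt1 difference was -0.9 ± 0.25 (SE) with an adjusted p of 0.0341 by edgeR, and those of Nphs1 and Synpo were -1.11 and -0.54 with adjusted p of 0.179 and 0.113. Nes, the intermediate filament gene nestin, did not follow the other podocyte genes and was at 25.6, 33.4, 37.1 and 25.2 CPM in the controls and at 61.1, 53.8 and 60.7 CPM (log2 difference 0.95 ± 0.16, SE, adjusted p 0.0758 by edgeR and 0.000153 by DESeq2). It is also made by other cells of injured kidneys. The share of glomeruli in each piece of tissue was not measured, and its part in the opposite podocyte values was not tested. In the same kidneys the 17 endothelial genes had medians of -0.22, 0.25 and -0.07, and of 0.15, 0.12 and 0.14 without TMM factors, so that their sign in replicates 1 and 3 depended on the scaling. The podocyte medians without TMM factors were -0.22, 0.25 and 0.18, which kept their sides in replicates 1 and 2 and turned in replicate 3. Among endothelial genes, Pecam1, an endothelial adhesion molecule, was at 75.8 to 79.8 CPM in the controls and 74.1, 83.6 and 85.8 CPM and Plat, the tissue plasminogen activator, at 69.2 to 97.2 CPM and 165, 102 and 138 CPM. The 15 genes of mesangial cells, pericytes and juxtaglomerular cells had medians of 0.5, 0.21 and 0.52.

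**Figure D4:**
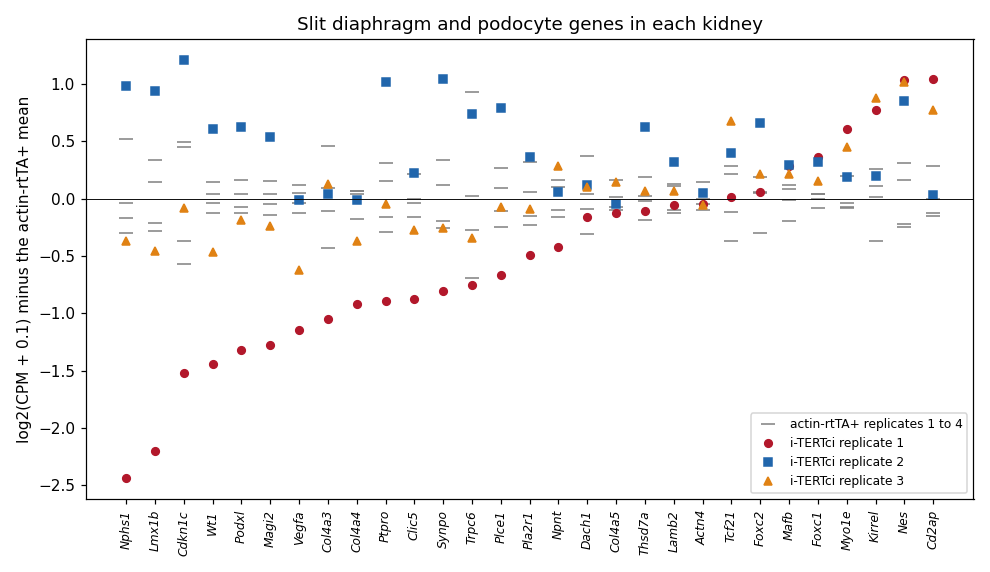
Difference of 29 of the 30 slit diaphragm and podocyte genes from the actin-rtTA+ mean (vertical axis, log2(CPM + 0.1)) in each kidney, ordered by i-TERTci replicate 1, with grey dashes for the 4 actin-rtTA+ kidneys. Replicate 1 (red) is below all controls in 17 of the genes drawn, replicate 2 (blue) above all controls in 18, and replicate 3 (orange) above them in 9 and below them in 9. Over all genes the shares were 33.2% below in replicate 1 and 19.8% above in replicate 2. In replicate 3 they were 30.6% above and 26.1% below, to which its counts are close.

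In the Hedgehog pathway, where ligands release Smo from its inhibition by the receptors and the Gli factors act on target genes, all 3 Gli genes were higher in each i-TERTci kidney. Besides Gli2, Gli1 was at 1.21, 1.84, 2.28 and 2 CPM in the controls and at 3.79, 3.91 and 4.01 CPM in i-TERTci replicates 1, 2 and 3, with a log2 difference of 1.09 ± 0.25 (SE). Gli3 was at 0.357 to 0.862 CPM and at 1.84, 1.24 and 1.61 CPM. The receptor gene Ptch1 was at 21.4 to 37.9 CPM in the controls and at 24.1, 24.7 and 26.5 CPM. The ligand gene Shh was at 1.35 to 2.49 CPM and at 0.805, 2.46 and 0.994 CPM. In the list of 17 genes, 6 were above all controls in all 3 kidneys and 0 below, against 9.01% and 8.17% of all genes. DESeq2 called 5 higher, among them the 3 Gli genes, against 8.18% of the genes it gave an adjusted p. The median over the list was 0.29, 0.15 and 0.25. The 3 Gli genes had an adjusted p of 0.0758, 0.0764 and 0.0829 by edgeR.

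Of 48 Wnt genes tested, 4 were above and 5 below all controls in all 3 kidneys, near the shares of 9.01% and 8.17% over all genes, with medians of 0.04, -0.1 and 0.13. Myc, a target gene that is also an immediate early gene, was at 7.09 to 9.21 CPM in the controls and at 55.9, 11 and 29.7 CPM. Of 30 Notch genes, 5 were above all controls and 0 below, against the same shares, with medians of 0.29, 0.1 and 0.2, and Heyl, a target, was at 6.3 to 8.58 CPM and at 21, 10.4 and 19.9 CPM. TGF-beta and BMP genes (31 tested) had medians of 0.61, 0.08 and 0.23, and RAS and ERK response genes (30 tested) 0.84, 0.21 and 0.55. DESeq2 called 8 and 14 genes of these lists higher, against 8.18% of the genes it gave an adjusted p. Over all 17745 genes the medians were 0.03, 0 and 0.02.

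Markers of tissues outside the kidney were at differing levels. Alb, the liver gene for serum albumin, was at 7.48 to 15.5 CPM in the controls and at 4.21, 13.1 and 9.15 CPM, and the medians of the 8 hepatocyte genes were -0.24, 0.27 and 0.46, with 0.08 in replicate 1 without TMM factors. Mc2r, the adrenal receptor for ACTH, was at 0.125 to 0.276 CPM and at 0.184, 0.181 and 0.281 CPM. The 7 adipocyte genes, among them Pck1, a gene of the proximal tubule as well (2414 to 3348 CPM in the controls, 556, 4331 and 1893 CPM in the i-TERTci kidneys), summed to 2482 to 3382 CPM in the controls and to 602, 4392 and 1951 CPM, and had medians of 0.45, 1.16 and 0.88, with Ucp1, the thermogenic carrier of brown fat, at 0.0647 to 0.458 CPM in the controls and 0.252, 2.69 and 1.95 CPM. Of 7 skeletal muscle genes 3 were tested, and 1 of them, Pvalb, is known in the distal convoluted tubule as well, at 74.1 to 114 CPM in the controls and 4.49, 57 and 33.6 CPM. Urothelial genes had medians of 0.16, 0.76 and 0.19 over 8 genes, with Krt15 at 1.55 to 2.74 CPM and 8.13, 4.19 and 2.49 CPM.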

How the data were processed

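Whole-kidney RNA of 7 mice was sequenced as paired-end reads. Per the labels and the study's methods, the authors checked reads with FastQC, trimmed them with Trimmomatic and aligned them with STAR to mm10. What they deposited, per the file headers and the values, is a table of raw counts of reads for each gene. The counting tool, annotation and strand setting are not given in the sources used here, so reads of overlapping and antisense genes cannot be told apart. Symbols and coordinates are from GENCODE M21, which matched 55230 of 55471 identifiers.

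The 7 libraries were fitted alone with edgeR 4.0.16 in R 4.3.3 (filterByExpr, TMM factors, robust quasi-likelihood F test), with Benjamini-Hochberg adjustment over all genes tested and a threshold of 0.05. The test was checked on simulated data. DESeq2 1.42.0, limma 3.58.1 (voom with quality weights), other scalings, filters and moderation, a replicate block, all 20 libraries together and each library left out were tried as alternatives. DESeq2 without each i-TERTci library, and CPM without TMM factors, were added after seeing the data.

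Members and the 40 gene lists were chosen with earlier results of these data known. Named genes are the 10 with the smallest p (since few were called), the gene of smallest p in each list, and genes the study names or that mark kidney segments. Values of a few genes are not reported here, although the list counts include them. Others are named as chosen after their values were seen. With nothing to say otherwise, p-values measure the spread between these 7 mice. Promoter windows are the 250 bases before the first RefSeq start listed per gene (27025 genes, GRCm38.p6).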

Additional observations from a re-analysis of the deposited data

Results flagged for a closer look

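Among 55 named genes, 3 had 1 actin-rtTA+ library set apart from the other controls by a gap that was over 0.829 of the range of the 4 libraries. Chance alone gives such a gap in about 1 of 20 groups. Klhl3 was at 51 CPM in actin-rtTA+ replicate 1 and at 37.3 to 39.6 CPM in the other controls. Osmr was at 13.3 CPM in replicate 2 and at 11.2 to 11.5 CPM in the others. Mki67 was at 4.31 CPM in replicate 1 and at 5.64 to 5.86 CPM in the others. In i-TERTci replicates 1, 2 and 3 Klhl3 was at 16.8, 33.3 and 27.6 CPM, Osmr at 48, 19.2 and 49.3 CPM and Mki67 at 43.5, 8.26 and 53.2 CPM. Groups of 3, such as the i-TERTci kidneys, were not examined in this way.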

How the results depend on the processing

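The number of genes called by edgeR (1 in all, 1 higher, 0 lower) became 0 with median-ratio or upper-quartile factors or where only genes with 1 CPM or more on average were kept (3966, 3951 and 3379 at an unadjusted p under 0.05), 23 (22 higher, 1 lower) with no filter, 1995 (1602 and 393) with DESeq2, 6039 (3488 and 2551) with limma voom and quality weights, and 618 (599 and 19) with all 20 libraries in 1 fit. It was 1 with the newer method and with no robust moderation. Leaving out 1 library gave 0 to 4325 calls (0 to 2777 higher and 0 to 1548 lower). It gave 0 without actin-rtTA+ replicate 1, 2 or 3 (3423, 3357 and 2791 at an unadjusted p under 0.05), 2 without replicate 4, 1 and 3 without i-TERTci replicates 1 and 3, and 4325 without i-TERTci replicate 2. DESeq2 gave 730 (603 higher, 127 lower), 5144 (2804 and 2340) and 878 (780 and 98) without i-TERTci replicates 1, 2 and 3. The cause of the differences between tools was not tested.

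With the replicate block edgeR called 1 gene, Gm43305 and not Hmox1. Replicate numbers are shared between the groups in name only. The deviations of same-numbered libraries correlated at -0.12, 0.0807 and -0.0859, and not every library correlated best with its own number. In the block fit Synpo turned to -0.11 on the log2 scale.

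With voom weights Synpo was -0.28 and Aqp2 -0.04. Leaving out 1 library in turn gave ranges that crossed 0 for Ttr (-0.21 to 5.63), Mc2r (-0.06 to 0.3), Wt1 (-0.9 to 0.16), Synpo (-0.54 to 0.5), Aqp2 (-0.03 to 0.48), Umod (-0.04 to 0.46) and Nphs1 (-1.11 to 0.41). The sign turned without i-TERTci replicate 1 in Wt1, Aqp2, Umod and Nphs1, without replicate 2 in Synpo, without replicate 3 in Ttr, Mc2r and Nphs1 (0.07), and without actin-rtTA+ replicate 3 in Nphs1 (0.13). By DESeq2 the turned values were the same or within 0.03 of these (-0.57 for Synpo, -0.07 for Mc2r), with Pecam1 at 0 without i-TERTci replicate 2 or 3. In the fits where the sign turned 0 of these were called (lowest adjusted p 0.0565), and the other named genes kept their direction in every fit. Of 800 list medians under the alternatives, 784 moved by less than 1 SD between the 3 i-TERTci kidneys. That SD is wide in many lists, with macrophage medians of 3.33, 0.51 and 2.74, so this count says little about stability. The planned share of genes called without a library that differ alike in it is not reported, because the fits share their controls. With 3 i-TERTci kidneys of unequal response, a gene that is not called is not shown to be unchanged.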

Other observations

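Several genes outside the comparisons above were high in single i-TERTci kidneys. Apart from Ttr, the gene of smallest p among hepatocyte genes, those named here were chosen after their values were seen. Ttr, the thyroid hormone carrier transthyretin, was at 0.667 to 1.45 CPM in the controls, at 0.838 and 0.828 CPM in i-TERTci replicates 1 and 2 and at 92.9 CPM in replicate 3, where the hepatocyte gene Alb was at 9.15 CPM. Akr1c18, a steroid-metabolising reductase, was at 99.9, 126, 122 and 304 CPM in the controls and at 98.2, 1015 and 266 CPM in i-TERTci replicates 1, 2 and 3.

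Hemoglobin genes were higher in replicates 2 and 3 than in replicate 1. Hba-a1 was at 318, 683, 707 and 485 CPM in the controls and at 539.8, 2032 and 1253 CPM in the i-TERTci kidneys, and Hbb-bs was at 189.9 to 352 CPM and at 142, 743 and 585 CPM. The 7 red cell genes had medians of -0.23, 1.16 and 1.26, with 0.13 in replicate 1 without TMM factors. The chemokine gene Ccl28, which attracts antibody-secreting cells, was at 105, 5.89, 9.16 and 3.92 CPM in the controls and at 22.6, 155 and 73.3 CPM, so that actin-rtTA+ replicate 1 lay among the i-TERTci kidneys.

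The level of Tert and the size of the response did not follow the same order in the 3 i-TERTci kidneys. Tert was 28.1 CPM in replicate 2, 17.9 in replicate 1 and 4.31 in replicate 3, whereas the median difference of the macrophage list was 0.51, 3.33 and 2.74 and that of the proximal tubule list -0.07, -2.27 and -0.7 in the same kidneys. With 3 kidneys no relation was tested.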
